A study of Mus musculus with 15 samples.

Results

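The secreted and membrane mucins described here are 6 genes, Muc1, Muc2, Muc3, Muc4, Muc13 and Muc20, chosen by name among the genes on a whole-genome mouse microarray. They are read by 11 of the 41174 distinct non-control probes, 1 each for Muc2, Muc3, Muc13 and Muc20, 2 for Muc1 and 5 for Muc4, where a probe is a 60-base sequence printed on the array. The arrays held RNA from laser-microdissected colon of male Apc+/Min-FCCC mice on a C57BL/6J background, in which 1 copy of Apc, a tumor suppressor gene, is mutant and the colon grows adenomas. Mice were sorted by colonoscopy at 6 to 8 weeks of age into tumor-bearing and tumor-free animals and then fed their diet for 7 days.

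The 4 groups were adenomas of tumor-bearing mice given sulindac (300 ppm, a non-steroidal anti-inflammatory drug) plus atorvastatin (100 ppm, a statin) in the chow, here treated adenoma (4 arrays); adenomas of mice on plain chow, untreated adenoma (3 arrays); normal epithelium of tumor-bearing mice (4 arrays); and normal epithelium of tumor-free mice (4 arrays). Both epithelium groups are labelled as given atorvastatin alone at 100 ppm, so no epithelium in these data is labelled as free of drug. The study's protocol assigns tumor-bearing mice only to plain chow or to both drugs, which goes against the atorvastatin label of the tumor-bearing epithelium. The labels were followed. For the 4 arrays of that group strain, sex and age are given in the protocol shared by all samples.

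Several arrays labelled as separate replicates differed by less than the noise between spots and were averaged and counted as 1 sample each. These were untreated adenoma 1 and 2, treated adenoma 2, 3 and 4, tumor-free epithelium 3 and 4, and tumor-bearing epithelium 1 and 3. That left 2 treated adenoma, 2 untreated adenoma, 3 tumor-bearing epithelium and 3 tumor-free epithelium samples. Tumor-free epithelium 2 and tumor-bearing epithelium 2 also differed by little more than spot noise although their labels put them in different groups, and each was kept under its own label. Between 56.5% and 75.5% of spots on an array were well above background. No mucin spot was saturated. A level below is the log2 of an array's processed intensity minus the log2 of that array's 75th percentile, so 0 is a spot at the 75th percentile and 1 unit is a doubling. Levels of different probes cannot be set against each other.

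Mucins are long glycoproteins whose repeats of serine and threonine are covered in O-linked sugars. In the colon the gel-forming mucin Muc2, secreted by goblet cells, builds the mucus layer that keeps bacteria from the epithelium, and transmembrane mucins such as Muc1, Muc3, Muc4 and Muc13 form the glycocalyx on the cell surface. Loss of goblet cell differentiation and of Muc2 is a known feature of many colon adenomas.

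The Muc2 probe and some of the Muc4 probes are shown here, in the array's own sequence, with their positions in mouse build mm7 as the array files give them (all on the + strand). The sequences of the other mucin probes, among them that of Muc3, are not shown. The Muc2 probe lies at chr7:138181839-138181898. The Muc4 probes lie on chromosome 16, A_52_P465239 at chr16:32429715-32429774, A_52_P578956 at chr16:32453283-32453342 and A_52_P578952 at chr16:32453628-32455350. The last interval is longer than the probe, so its bases are split over the genome. No exon annotation of build mm7 was used here.
Muc2 A_51_P128320: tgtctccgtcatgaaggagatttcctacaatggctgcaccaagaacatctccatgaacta
Muc4 A_52_P465239: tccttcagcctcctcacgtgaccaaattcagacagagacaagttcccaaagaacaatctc
Muc4 A_52_P578956: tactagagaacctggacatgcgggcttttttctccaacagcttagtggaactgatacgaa
Muc4 A_52_P578952: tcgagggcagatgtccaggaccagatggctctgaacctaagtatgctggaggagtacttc

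The other probes lie in the same build at chr5:136105895-136105954 for Muc3 (− strand), chr16:33493901-33493960 for Muc13 (+ strand), chr16:32460581-32460640 for Muc20 (− strand), chr16:32456641-32456690 for Muc4 probe A_52_P458219 and chr16:32456834-32456889 for Muc4 probe A_51_P392277 (both + strand). RefSeq lists a gene Muc3a besides Muc3, and whether the Muc3 probe also binds Muc3a transcripts was not tested. The 2 Muc1 probes lie on chromosome 3.

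Muc2, the gel-forming mucin of goblet cells, was lowest in the treated adenomas. Its level was -2.25 and 1.52 in the 2 treated adenoma samples, 4.27 and 5.92 in the 2 untreated adenoma samples, 5.41, 5.90 and 6.28 in tumor-bearing epithelium, and 4.37, 5.29 and 6.17 in tumor-free epithelium. Both treated samples lay below every other sample, and the other 3 groups overlapped. Treated adenoma averaged -0.37 ± 2.66 and untreated adenoma 5.10 ± 1.17 (SD, n = 2 each), a log2 difference of -5.46 ± 1.11 (SE), 44.1-fold lower, that did not pass the threshold (limma adjusted p = 0.135). With every array kept and a random block for near-identical arrays it was -5.44 with an adjusted p of 0.043, past the threshold. Of 33 alternatives 5, this one included, passed the threshold and 28 did not. Against tumor-bearing epithelium (5.86 ± 0.44, SD, n = 3) Muc2 fell by 6.23 in treated adenoma, 75-fold, with a limma adjusted p of 0.00442. Against tumor-free epithelium (5.28 ± 0.90, SD, n = 3) it fell by 5.64, 50-fold, with a limma adjusted p of 0.00807. The sizes rest in part on treated adenoma 1, the lower of the treated samples. Without it the difference was -3.58 against untreated adenoma (adjusted p = 0.414), -4.35 against tumor-bearing epithelium (adjusted p = 0.0306) and -3.76 against tumor-free epithelium (adjusted p = 0.0549, no longer past the threshold). Without the other treated sample the differences were -7.35, -8.11 and -7.53 (adjusted p = 0.0704, 0.00286 and 0.00382). In untreated adenoma the log2 difference was -0.77 against tumor-bearing and -0.18 against tumor-free epithelium, with adjusted p of 0.663 and 0.94.

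Muc3, a transmembrane mucin of the brush border, separated 3 levels of samples. Its level was -0.76 and 0.42 in treated adenoma, 3.74 and 5.12 in untreated adenoma, 5.83, 6.64 and 6.76 in tumor-bearing epithelium, and 6.19, 6.61 and 6.66 in tumor-free epithelium. Neither adenoma group overlapped the other or the epithelium, while the 2 epithelium groups overlapped. In treated adenoma Muc3 fell by 6.58 against tumor-bearing epithelium (95.7-fold, limma adjusted p = 0.000158) and by 6.66 against tumor-free epithelium (101-fold, adjusted p = 0.000165). Against untreated adenoma it fell by 4.60 ± 0.63 (SE), 24.3-fold, with a limma adjusted p of 0.0464. That p lay close to the threshold and passed it no longer under 13 of 33 alternatives, among them leaving out treated adenoma 1 (-4.01, adjusted p = 0.22) or untreated adenoma 1 and 2 (-3.92, adjusted p = 0.153). Untreated adenoma differed by -1.98 from tumor-bearing and by -2.06 from tumor-free epithelium, with adjusted p of 0.063 and 0.0622, which miss the threshold.

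**Figure D1:**
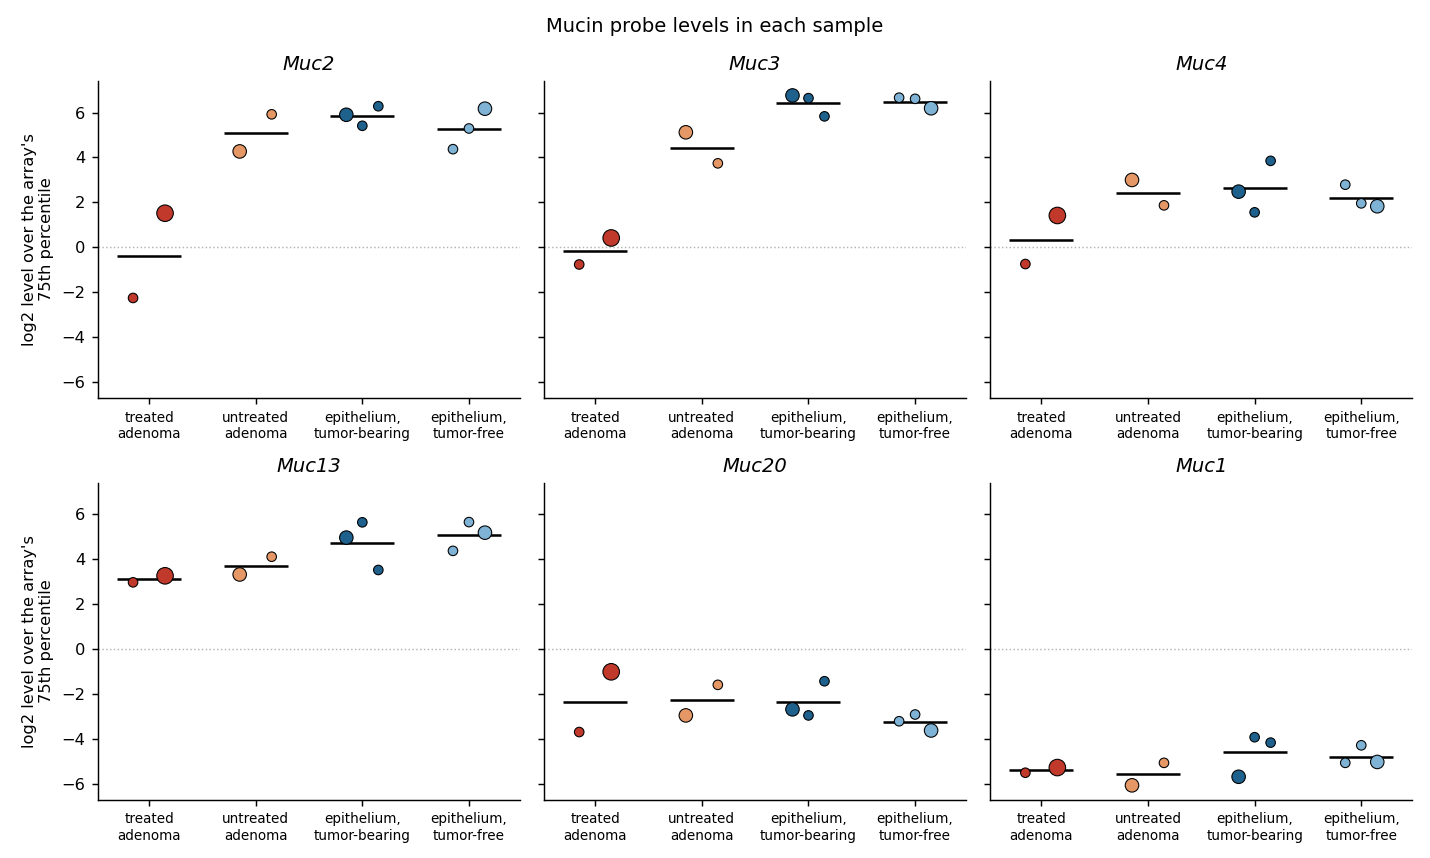
Level of the probe with the highest mean for each mucin, as log2 of the intensity over the array's 75th percentile (dotted line at 0), in the 10 samples by group. Each point is 1 sample, its area proportional to the number of arrays averaged, and each bar is a group mean. Muc2 and Muc3 are lower in both treated adenoma samples than in all 8 others, while Muc20 and Muc1 overlap between treated and untreated adenoma.

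Muc13, a transmembrane mucin made by enterocytes and goblet cells, varied less. Its level was 2.97 and 3.26 in treated adenoma, 3.32 and 4.11 in untreated adenoma, 3.52, 4.96 and 5.64 in tumor-bearing epithelium, and 4.37, 5.18 and 5.65 in tumor-free epithelium. The treated samples were the lowest of all 10. The log2 differences of treated adenoma were -0.60 against untreated adenoma, -1.59 against tumor-bearing and -1.95 against tumor-free epithelium, with limma adjusted p of 0.808, 0.153 and 0.117. None passed the threshold. Untreated adenoma differed by -0.99 from tumor-bearing and by -1.34 from tumor-free epithelium, with adjusted p of 0.372 and 0.272.

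Muc20 and Muc1 gave dim signals. Muc20, a membrane mucin known to bind the receptor Met, had levels of -3.69 and -1.01 in treated adenoma, -2.95 and -1.59 in untreated adenoma, -2.95, -2.68 and -1.43 in tumor-bearing epithelium, and -3.62, -3.21 and -2.91 in tumor-free epithelium. The spread between the 2 treated samples covered every other group. The log2 differences ran from -0.08 (treated against untreated adenoma) to 0.97 (untreated adenoma against tumor-free epithelium), and no comparison passed the threshold, with limma adjusted p from 0.524 to 0.999. Muc1, a transmembrane mucin whose tail binds signalling proteins, was well above background on 11 and 9 of 15 arrays for its probes A_51_P467346 and A_52_P58208. The brighter probe had levels of -5.50 and -5.27 in treated adenoma, -6.06 and -5.06 in untreated adenoma, -5.68, -4.16 and -3.92 in tumor-bearing epithelium, and -5.06, -5.02 and -4.28 in tumor-free epithelium. Tumor-free epithelium was the only group in which all 4 arrays measured it above background, so it entered only the 3 tests against that group, with differences of -0.60 for treated adenoma, -0.78 for untreated adenoma and 0.20 for tumor-bearing epithelium and limma adjusted p of 0.623, 0.495 and 0.997. The dimmer probe entered no test.

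Muc4, a transmembrane mucin known as a partner of the receptor ErbB2, is read by 5 probes that did not move together. On the 4 probes of its 3′ part the treated adenomas were the lowest group on average. A_51_P392277, the brightest, had levels of -0.74 and 1.42 in treated adenoma, 1.87 and 3.00 in untreated adenoma, 1.56, 2.48 and 3.85 in tumor-bearing epithelium, and 1.83, 1.96 and 2.79 in tumor-free epithelium. A_52_P458219, which ends 199 bases before it on the genome, had levels of -2.36 and -0.30 in treated adenoma, 1.36 and 2.05 in untreated adenoma, 0.75, 1.34 and 2.87 in tumor-bearing epithelium, and 0.77, 1.19 and 1.67 in tumor-free epithelium. On both probes the treated samples lay below all others. A_52_P578952 had levels of -6.26 and -3.31 in treated and -0.29 and 0.77 in untreated adenoma, and A_52_P578956 had -6.89 and -5.35 in treated and -3.29 and -1.41 in untreated adenoma. On these probes the mean was highest in untreated adenoma, at 0.24 for A_52_P578952 and -2.35 for A_52_P578956. Their means were -1.17 and -2.59 in tumor-bearing epithelium, and -1.92 and -4.37 in tumor-free epithelium. The highest single sample on both was tumor-bearing epithelium 4, at 1.29 and -0.38. Untreated adenoma did not pass the threshold against tumor-bearing epithelium (limma adjusted p = 0.50 and 0.93) or tumor-free epithelium (0.35 and 0.41) on these probes.

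The log2 differences of these 4 probes between treated and untreated adenoma ran from -2.09 to -5.03, with limma adjusted p from 0.267 to 0.43, none past the threshold. In treated adenoma A_52_P578952 was well above background on 3 of 4 arrays and A_52_P578956 on 2 of 4. The sizes of their differences thus rest in part on values near background. Against tumor-bearing epithelium, A_52_P458219 fell by 2.99 in treated adenoma, 7.94-fold, with a limma adjusted p of 0.0337. The other 3 differed by -2.29, -3.53 and -3.62 in the same comparison, with adjusted p of 0.105, 0.148 and 0.0987. Without treated adenoma 1 the difference of A_52_P458219 was -1.96, with an adjusted p of 0.287. It was also past the threshold no longer when only the 2 groups compared were fitted (adjusted p = 0.0987), and it missed the threshold in 7 of 32 alternatives. A_52_P578956 was flagged on both arrays averaged into 1 of the tumor-bearing samples, so that group had 2 values for it.

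The 5′-most Muc4 probe, A_52_P465239, ends 27115 genomic bases before the last one and was dim, with a mean of -4.37 over unflagged arrays. Unlike the 4 probes of the 3′ part, it was higher on average in treated than in untreated adenoma. Like them, it was lower on average in treated adenoma than in tumor-bearing (-0.94) and tumor-free epithelium (-0.42), with limma adjusted p of 0.23 and 0.66. Its level was -5.09 and -4.27 in treated adenoma, -5.60 and -5.49 in untreated adenoma, -4.13, -3.86 and -3.21 in tumor-bearing epithelium, and -4.57, -4.35 and -3.84 in tumor-free epithelium. Here untreated adenoma was the lowest group, below every sample of the other 3. It fell by 1.81 ± 0.47 (SE) in untreated adenoma against tumor-bearing epithelium (3.5-fold, limma adjusted p = 0.0446), and the treated minus untreated difference was 0.87 with an adjusted p of 0.576. The call was past the threshold no longer under 18 of 32 alternatives. Over all 32 the limma adjusted p ran from 0.003 to 0.249. The 4 probes of the 3′ part correlated with each other at Pearson r between 0.69 and 0.97 over the 10 samples and with this probe between -0.16 and 0.12, as a description over samples that share groups. The scanner software flagged this probe as an outlier on untreated adenoma 2, so the sample averaged from untreated adenoma 1 and 2 rests on array 1 alone. With flags ignored the difference was -1.25 with an adjusted p of 0.185. The RNA had gone through a pair of linear amplification rounds from 10 ng, and whether the distance of a probe from the transcript's end bears on this difference was not tested. In the RefSeq gene order Muc4 and Muc20 are neighbours, and their probes lie on opposite strands.

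**Figure D2:**
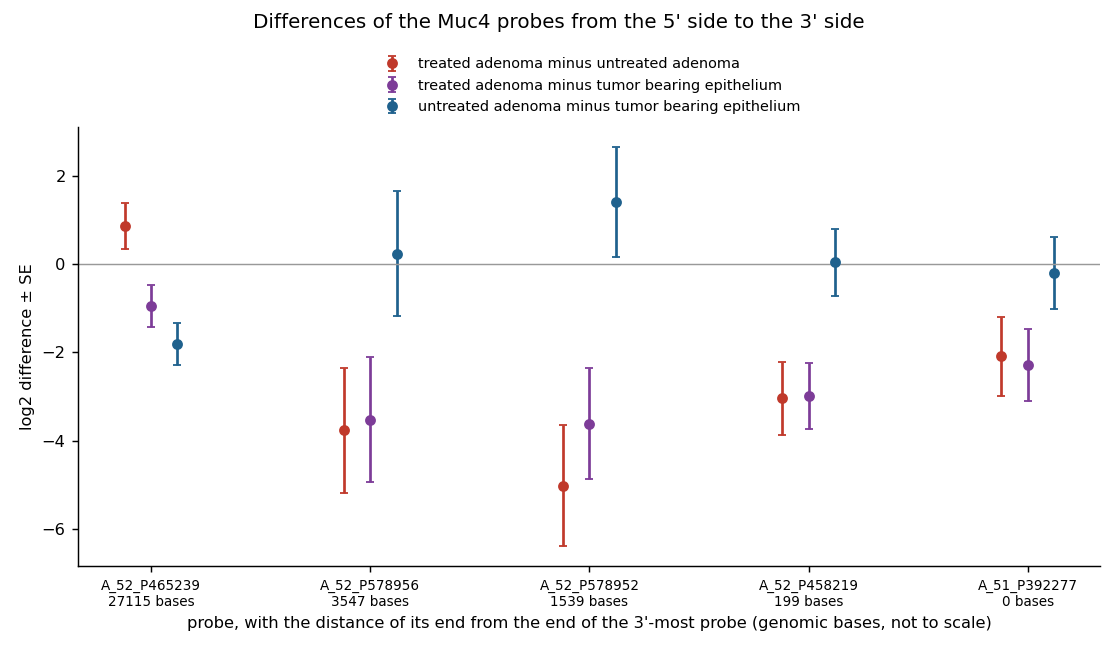
Log2 difference ± SE (y axis) of the 5 Muc4 probes in 3 comparisons, ordered from the 5′ side to the 3′ side, with the genomic distance of each probe's end from that of the last probe under its name (x axis, not to scale). The 4 probes on the right lie between -2.09 and -5.03 for treated minus untreated adenoma, and A_52_P465239 on the left lies at 0.87.

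Over the mucin probes, treated adenoma was set against untreated adenoma in 9 of 11 probes, and 1 of the 9, Muc3, passed the threshold (an adjusted p under 0.05), lower. Over all probes tested 0.138% were called in this comparison, 35 of 25320, and 0.0513% were called lower. At an unadjusted p under 0.05, 6 of the 9 mucin probes passed, against 11.2% of all probes. The median log2 difference was -3.03 over the 9 mucin probes and 0.01 over all probes tested. On 8 of the 9 the samples of the groups did not overlap, 1 higher and 7 lower, where 47.1% of all probes tested did not overlap. The 4 tested probes of the 3′ part of Muc4 read 1 transcript and are not separate genes. The comparisons share samples, since treated adenoma also stands in the tests against epithelium.

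Treated adenoma against tumor-bearing epithelium called 3 of 9 mucin probes, Muc2, Muc3 and A_52_P458219 of Muc4, all lower, where 5.36% of all probes were called lower and 10.7% in either direction. The samples did not overlap on 8 of the 9, against 43.5% of all probes. Treated adenoma against tumor-free epithelium called 2 of 10, Muc2 and Muc3, both lower, where 4.22% of all probes were called lower and 7.77% in either direction. The samples did not overlap on 7 of the 10, against 41.8% of all probes. Untreated adenoma against tumor-bearing epithelium called 1 of 9, the 5′-most Muc4 probe, lower, where 4.49% of all probes were called lower and 8.62% in either direction. The samples did not overlap on 2 of the 9, against 44% of all probes. Untreated adenoma against tumor-free epithelium called 0 of 10 by limma, while 7.25% of all probes were called. Of the 10, 2 had an unadjusted p under 0.05, against 21.8% of all probes, and 5 did not overlap, against 44.9%. In the comparisons of adenoma with epithelium, tissue and drug change together, and they cannot be told apart. By the labels the untreated adenomas had no drug and the epithelium had atorvastatin, while the treated adenomas had sulindac in addition to atorvastatin. For the tumor-bearing epithelium the protocol goes against that label.

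Tumor-bearing and tumor-free epithelium, which share a drug label and differ in whether the mouse had adenomas, did not differ in any mucin probe by limma at the threshold. The 10 differences ran from -0.36 (Muc13) to 1.77 (A_52_P578956 of Muc4), with adjusted p of 0.996 or 0.997 for each, 0 had an unadjusted p under 0.05, and all 10 overlapped between the groups, where 7.33% of all probes did not. The SEs of these differences ran from 0.42 to 1.30 on the log2 scale, so a p that misses the threshold does not show equal levels. Tumor-free epithelium 2 and tumor-bearing epithelium 2, which differed by little more than spot noise, stand on opposite sides here. Such a pair makes overlap likely and can draw the group means together. Without that pair 0 of all probes were called as well. Over all probes 0% were called, 0 of 24885, and 659 (2.65%) had an unadjusted p under 0.05.

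**Figure D3:**
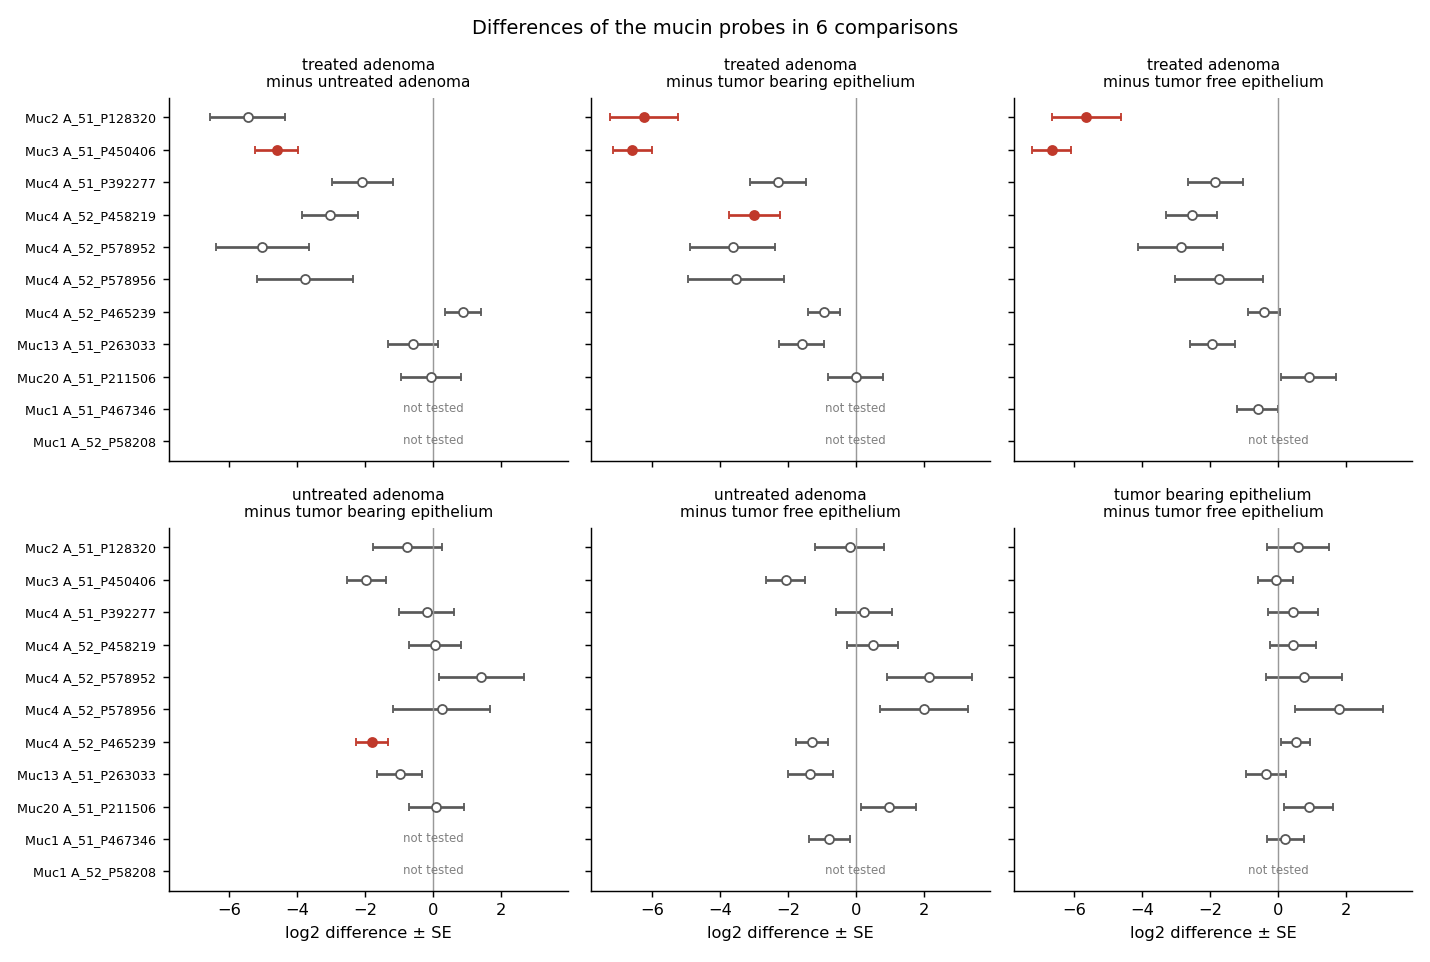
Log2 difference ± SE (x axis) of each of the 11 mucin probes in the 6 comparisons, 1 panel each, with probes down the y axis. Filled red points passed a limma adjusted p of 0.05 and open points did not. Muc2 and Muc3 lie between -4.60 and -6.66 in all 3 panels with treated adenoma, and every point of the last panel lies within 1.77 of 0.

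Scan date and group were tied in part. The arrays were scanned on 6 dates, and the 2 dates that hold tumor-free epithelium hold no other group, so date and group cannot be told apart there. Treated and untreated adenoma shared 2 dates. Within them the Muc3 differences were -5.82 and -3.31 and the Muc2 differences -6.48 and -4.38, each from 1 or 2 arrays a side. With date as a block on separate arrays the Muc3 difference was -4.30 (limma adjusted p = 0.00566) and the Muc2 difference -4.96 (adjusted p = 0.00594), in a fit that counts near-identical arrays as separate samples.

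In microdissected tissue fewer cells of a type and less RNA per cell cannot be told apart, so the markers of other cell types stand beside these results. Of 11 goblet cell markers 9 were on the array, and their summed level was 6.66 to 7.20 in treated adenoma, 7.88 to 7.98 in untreated adenoma, 8.89 to 9.29 in tumor-bearing and 8.54 to 9.15 in tumor-free epithelium. A sum here adds the unlogged levels of different probes, so the brightest markers weigh most in it. Zg16, Clca1 and Spdef among the goblet markers also stand in lists below, which are thus not separate from these markers. In treated adenoma 1 goblet marker and 2 absorptive markers were not well above background on any array. The 12 absorptive colonocyte markers summed to 5.78 to 6.80 in treated adenoma, 6.58 to 7.28 in untreated adenoma, 8.31 to 9.20 in tumor-bearing and 8.95 to 9.15 in tumor-free epithelium. Of 8 goblet markers tested, 4 fell in treated and 2 in untreated adenoma against tumor-bearing epithelium, and of 12 absorptive markers 8 fell in treated and 5 in untreated adenoma. Over all probes 5.36% were called lower in treated and 4.49% in untreated adenoma against tumor-bearing epithelium. In either direction 10.7% and 8.62% were called there, and 7.77% and 7.25% against tumor-free epithelium. Between treated and untreated adenoma the summed goblet levels did not overlap, where 47.1% of all single probes tested did not overlap either. There 0 of 8 goblet and 0 of 11 absorptive markers passed the limma threshold, with 5 and 7 at an unadjusted p under 0.05. Of all probes tested 0.138% passed the threshold and 11.2% had an unadjusted p under 0.05. The median log2 difference was -2.167 over the 8 goblet markers, -2.065 over the 11 absorptive markers and 0.008 over all probes tested. The 6 pan-epithelial markers varied less, with sums of 8.19 to 8.73 in treated adenoma, 8.37 to 8.48 in untreated adenoma, 8.40 to 9.07 in tumor-bearing and 8.54 to 8.91 in tumor-free epithelium, with 0 of 6 called in any comparison. All 5 neutrophil markers on the array were called higher in both adenoma groups against each epithelium group, with sums of 4.00 to 5.54 in treated adenoma, 4.22 to 4.51 in untreated adenoma, -3.58 to -2.70 in tumor-bearing and -3.20 to -2.42 in tumor-free epithelium. Mast cell markers summed to 0.09 to 0.13 in treated and 1.53 to 1.83 in untreated adenoma, with 1 of 5 tested called lower, where 0.0513% of all probes were called lower. Enteroendocrine markers, 8 on the array, summed to 5.56 to 6.11 in treated adenoma, 1.86 to 3.09 in untreated adenoma, 6.90 to 7.78 in tumor-bearing and 6.85 to 7.34 in tumor-free epithelium. Of 7 tested, 6 fell in treated and 7 in untreated adenoma against tumor-bearing epithelium, and 0 of 6 passed between the adenoma groups, with 1 at an unadjusted p under 0.05. The median log2 difference of those 6 was 0.406. Averaged over the 8 enteroendocrine markers, the level was -2.35 to -2.32 in treated and -3.24 to -2.92 in untreated adenoma, closer together than the sums. Of 7 Paneth and deep crypt markers 4 rose in both adenoma groups against tumor-bearing epithelium and 1 fell in treated adenoma, with sums of 6.51 to 7.33 in treated adenoma, 7.5 to 7.78 in untreated adenoma, 3.96 to 5.97 in tumor-bearing and 3.98 to 6.58 in tumor-free epithelium. In the same comparisons 4 of 5 B and plasma cell markers fell in treated and 3 of 5 in untreated adenoma, as did 3 of 3 and 2 of 3 red blood cell markers and 1 of 5 and 4 of 6 smooth muscle markers. Macrophage, T cell, fibroblast and endothelial markers had 0 called in any comparison. The part of all these markers in the mucin differences was not tested.

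Of 18 genes for mucus assembly and goblet secretion, 9 fell in treated adenoma against tumor-bearing epithelium and 7 against tumor-free epithelium, and 0 rose, where 5.36% and 4.22% of all probes were called lower. Zg16, a lectin-like protein of goblet cell granules, fell by 10.30 on the log2 scale against tumor-bearing epithelium (limma adjusted p = 0.000208), with means of -3.60 in treated adenoma and 6.70 in epithelium. Clca1, a metalloprotease of the mucus, fell by 6.63, and Nlrp6, an inflammasome sensor linked to goblet secretion, fell by 3.57, with adjusted p of 0.000295 and 0.0026. In untreated adenoma 6 of the 18 fell against tumor-bearing epithelium, among them Clca1, which fell by 4.80 (adjusted p = 0.00232), and the anion channel Best2, which fell by 6.93 (adjusted p = 0.00552). Between treated and untreated adenoma 0 of 18 passed the limma threshold and 7 had an unadjusted p under 0.05, against 11.2% of all probes. Zg16 differed by -6.48 ± 1.03 (SE) there, with an adjusted p of 0.0547. The median log2 difference of the 18 was -2.40 in treated adenoma and -0.56 in untreated adenoma against tumor-bearing epithelium, and -0.83 between the adenoma groups, where the medians of all probes tested were -0.01, -0.02 and 0.01.

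**Figure D4:**
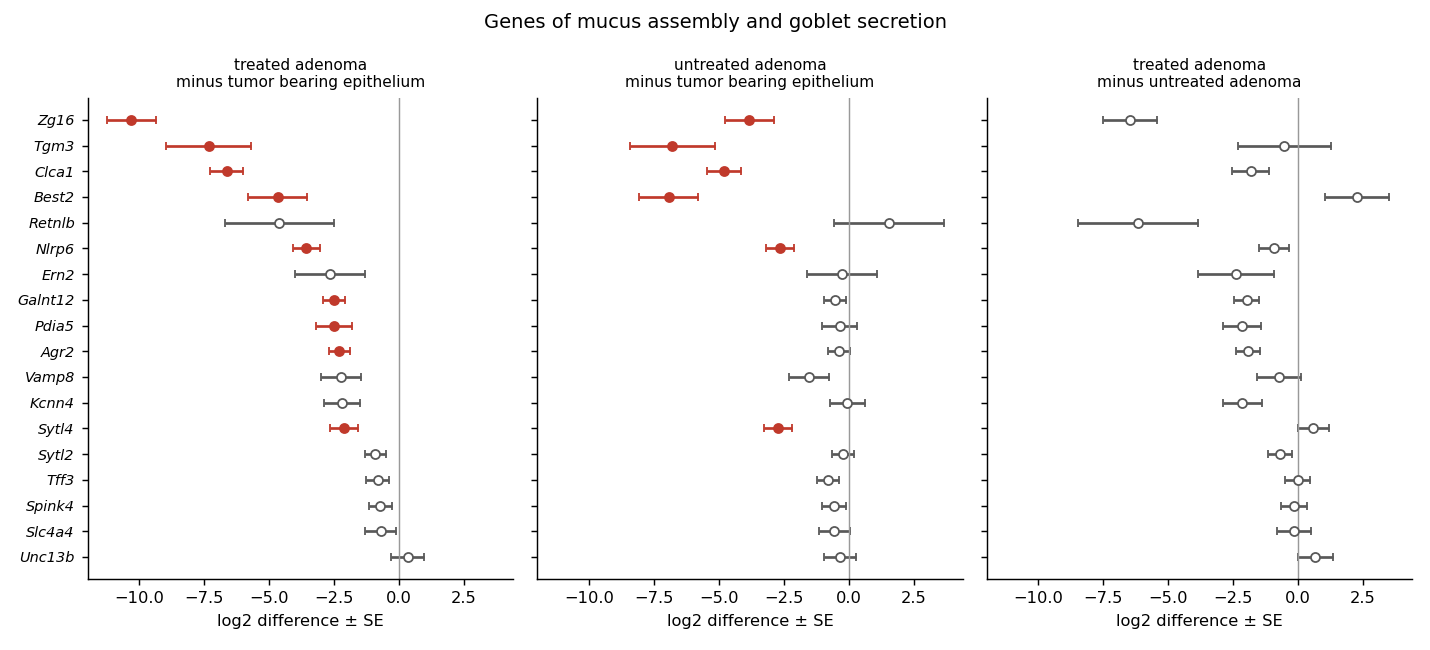
Log2 difference ± SE (x axis) of the 18 measured genes of mucus assembly and goblet secretion (y axis) in 3 comparisons. Filled red points passed a limma adjusted p of 0.05. In treated adenoma 9 and in untreated adenoma 6 are lower than in tumor-bearing epithelium, with Zg16 at -10.30 in treated adenoma, and none is called between the adenoma groups.

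Some enzymes that attach and extend O-linked sugars on mucins were lower in adenoma. In treated adenoma 8 of 28 tested fell against tumor-bearing epithelium and 9 of 31 against tumor-free epithelium. In untreated adenoma 3 of 28 fell and 1 rose against tumor-bearing epithelium, and 4 of 31 fell against tumor-free epithelium. Over all probes 5.36% were called lower in treated and 4.49% in untreated adenoma against tumor-bearing epithelium, and 4.22% in treated adenoma against tumor-free epithelium. In untreated adenoma against tumor-free epithelium 7.25% were called in either direction. St3gal4, a sialyltransferase, fell by 3.86 in treated adenoma (limma adjusted p = 0.00156) and fell by 2.46 in untreated adenoma (adjusted p = 0.0183) against tumor-bearing epithelium, and Galnt5, which starts O-glycosylation, fell by 3.43 in treated adenoma (adjusted p = 0.00164) and fell by 3.10 in untreated adenoma (adjusted p = 0.00359). The 1 that rose, in untreated adenoma, was St6galnac3, another sialyltransferase, by 2.90 (adjusted p = 0.0459). It was well above background on only 1 array of tumor-bearing epithelium, so the size of its rise rests on values near background. Against tumor-free epithelium 0 of 31 rose in untreated adenoma. Between treated and untreated adenoma 0 of 28 passed the limma threshold and 8 had an unadjusted p under 0.05, against 11.2% of all probes.

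Among 15 factors of goblet cell fate, Klf4, a zinc finger factor needed for goblet cells of the colon, fell by 2.70 in treated adenoma (limma adjusted p = 0.00915) and fell by 3.35 in untreated adenoma (adjusted p = 0.00402) against tumor-bearing epithelium. Spdef, which drives late goblet cell maturation, and Cdx2, a caudal homeobox factor known to bind the Muc2 promoter, were lower in treated adenoma, where Spdef fell by 4.34 (adjusted p = 0.00878) and Cdx2 fell by 5.47 (adjusted p = 0.0117). In all, 5 of 14 tested fell in treated and 2 of 14 in untreated adenoma against tumor-bearing epithelium, where 5.36% and 4.49% of all probes were called lower. Of 15 partners and sheddases of membrane mucins, 3 fell and 1 rose in treated adenoma against the same group. Mep1a and Mep1b, the chains of meprin, a brush border protease that in mouse releases Muc2 from the epithelium, were lower, where Mep1a fell by 7.39 (adjusted p = 0.000126) and Mep1b fell by 5.82 (adjusted p = 0.000975). In untreated adenoma Mep1a fell by 6.44 (adjusted p = 0.000402), the 1 of the 15 that fell, and Adam10, a membrane metalloprotease, rose by 3.21 (adjusted p = 0.0414). Adam10 was well above background on only 1 array of tumor-bearing epithelium, so the size of its rise rests on values near background. Against tumor-free epithelium 0 of 15 rose in untreated adenoma. The 1 that rose in treated adenoma against tumor-bearing epithelium was Pdzk1, a PDZ scaffold of the brush border, by 2.92 (limma adjusted p = 0.031). Between the adenoma groups 0 of 13 fate factors and 0 of 15 partners passed the limma threshold, and 3 and 4 had an unadjusted p under 0.05, against 11.2% of all probes.

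Of 8 other mucin genes on the array, 4 were tested between treated and untreated adenoma and 0 passed the limma threshold, while 2 had an unadjusted p under 0.05, against 11.2% of all probes. Cdhr5, a brush border cadherin once named a mucin-like protocadherin, fell by 5.71 in treated adenoma against tumor-bearing epithelium (adjusted p = 0.00315) and differed by -2.64 from untreated adenoma (adjusted p = 0.366). In tumor-bearing against tumor-free epithelium none of the genes on these 5 lists passed the threshold.

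Over 14630 genes and the 10 samples, the genes whose levels followed each mucin most closely were ranked by Pearson's r, as a description over samples that share groups. Muc3 was followed most closely by Zg16 at r = 0.994, then Tgoln1 at 0.974 and Mgst1 at 0.972. Muc2 was followed by Aldh1b1 at 0.987, then H2-Q5 and Slc35e1 at 0.96 each. Muc13 was followed by Khnyn at 0.978, Csmd3 at 0.977 and Tmem37 at 0.975, and Muc4 by Rbp4 at 0.975 and by Cdkn3 and Btla at 0.941. The dim mucins had weaker matches, Cxcl9 at 0.905, Capn1 at 0.902 and Large2 at 0.901 for Muc20, and H2ac19 at 0.939, Napb at 0.928 and H1f1 at 0.92 for Muc1. Between the mucins, Muc2 and Muc3 correlated at 0.877 and Muc13 with Muc20 at -0.331.

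Because Muc2, Muc3 and the 3′ part of Muc4 were low in the same treated samples, the 250 bases before their RefSeq start sites (GRCm38.p6) were searched for short motifs of intestinal transcription factor families, chosen after the values were seen. All 6 mucins had an entry. The motifs were CACCC (KLF), TTTATG (CDX), CAAAG (HNF4 core) and TGTTTAC (FOXA), on both strands. Matches are in capitals in the sequences, which run 5′ to 3′ on the gene's strand, at chr7:141690090-141690339 (+ strand) for Muc2, chr5:137166047-137166296 (− strand) for Muc3 and chr16:32735636-32735885 (+ strand) for Muc4.
Muc2: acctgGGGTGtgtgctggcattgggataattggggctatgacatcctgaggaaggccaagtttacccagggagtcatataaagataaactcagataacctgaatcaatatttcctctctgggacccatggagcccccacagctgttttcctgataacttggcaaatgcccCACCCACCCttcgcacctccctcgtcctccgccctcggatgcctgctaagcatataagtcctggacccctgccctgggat
Muc3: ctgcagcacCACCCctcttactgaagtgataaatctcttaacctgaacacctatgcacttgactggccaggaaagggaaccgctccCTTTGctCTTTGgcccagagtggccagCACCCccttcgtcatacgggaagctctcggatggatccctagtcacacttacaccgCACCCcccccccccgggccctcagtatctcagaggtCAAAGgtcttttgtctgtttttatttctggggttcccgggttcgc
Muc4: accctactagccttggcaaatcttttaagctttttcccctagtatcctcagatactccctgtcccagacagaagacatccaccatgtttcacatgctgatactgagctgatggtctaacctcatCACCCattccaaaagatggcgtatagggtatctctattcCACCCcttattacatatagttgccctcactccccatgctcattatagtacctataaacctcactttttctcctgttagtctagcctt

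The KLF motif matched 3 times in the Muc2 window, where the matches 80 and 76 bases before the start share a base, 3 times in the Muc3 window and 2 times in the Muc4 window. It also matched 3 times in the window of Muc20, which passed no test, and had no match in those of Muc1 and Muc13. It occurs in 52% of the 32851 windows of that length. The HNF4 core matched 3 times in the Muc3 window, at 164, 157 and 45 bases before the start, and 1 and 3 times in the 2 windows listed for Muc13, which passed no test, and occurs in 48.6% of all windows. The letters of the CDX motif, in 10.8% of all windows, and of the FOXA motif, in 3.2%, are not in these 3 windows. A CDX match stood in 1 of the Muc13 windows and a FOXA match in that of Muc20. A match is a stretch of letters and no measured binding.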

How the data were processed

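RNA of 15 one-colour Agilent 4x44 arrays was measured. Per the file headers, the authors scanned them and extracted spots with Agilent Feature Extraction 9.5.3, and the deposited processed intensity (background-subtracted) was used. Levels are log2 intensities minus each array's own 75th percentile (control spots left out), with spots flagged as outliers left out and spots of a probe averaged. The authors' deposited table holds log2 values of the same arrays, with equal distributions, whose 4 tumor-bearing columns matched the scanner files in reverse order. It served as an alternative. Array number limits the precision.

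The members and gene lists were chosen with earlier results of these data known. All 4 groups (10 samples, 6 residual degrees of freedom) were fitted in 1 model with limma 3.58.1 (R 4.3.3, lmFit and eBayes) per probe. A probe was tested if well above background on every unflagged array of at least 1 group compared, and p-values were adjusted by Benjamini-Hochberg over all probes tested, with a threshold of 0.05. Every member probe is named. A gene stands for its brightest probe in lists, of which up to 3 called genes a direction are named by the moderated statistic. On simulated arrays with 25089 probes, a change of 4 log2 units between treated and untreated adenoma was recovered in 68.7% of changed probes, 2 units in 0%. The alternatives were other backgrounds, normalizations, filters, blocks and left-out arrays.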

Additional observations from a re-analysis of the deposited data

How the results depend on the processing

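Of 33 alternatives, or 32 where tumor-free epithelium could take no scan date block, the count of mucin probes called stayed at 0 between the epithelium groups under every one. For treated against untreated adenoma the count was 1. It was 0 with no filter on dim probes, without the near-identical pair across groups and with only the 2 groups compared, 2 with shared RNA as a random block, 4 with each array its own sample, 5 with a replicate block on separate arrays and 6 with slide or scan date as a block, and 0 to 1 with single samples or arrays left out. For untreated adenoma against tumor-bearing epithelium (1) it was 0 with quantile normalization, no filter, flags ignored, shared RNA as a block, the authors' table, without the near-identical pair and with only the 2 groups; 2 with normexp; 3 with separate arrays, array weights or slide as a block; 4 with the replicate block or scan date; and 0 to 2 with samples left out. Against tumor-bearing epithelium, treated adenoma (3) had 7 with separate arrays, 7 with the replicate block, 7 with slide and 6 with scan date as a block, and 2 to 4 with samples left out. Against tumor-free epithelium, untreated adenoma (0) had 1 with normexp, 1 probe per gene or array weights, 3 with separate arrays or slide as a block, 4 with the replicate block and 0 to 1 with samples left out, and treated adenoma (2) had 6 with separate arrays, 6 with the replicate block, 5 with slide as a block and 1 to 4 with samples left out. Fits on separate arrays, other than the one with shared RNA as a random block, count near-identical arrays as independent, which adds samples without new RNA. The 2 calls under the shared RNA block were Muc2 and Muc3. Elsewhere the cause was not tested. Same-numbered arrays of different groups deviated together at r from -0.202 to 0.49 (median 0.058, over 0.1 in 8 of 21) and other-numbered arrays from -0.468 to 0.354 (median -0.01, over 0.1 in 15 of 63). Since not every same-numbered pair was over 0.1 and no label ties the numbers to a shared animal or batch, they were not used to pair samples. Over all probes, treated against untreated adenoma called between 1 and 3317, against 35.

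Of the log2 differences of single probes under the alternatives, 1636 kept direction and side of the threshold, 39 lost a call, 79 gained one and 70 turned sign, none of the last from a called value. Muc20 turned to 0.82 with separate arrays, 0.64 with the replicate block, 0.53 with slide and 0.16 with scan date as a block for treated against untreated adenoma (-1.42 to 1.26 with samples left out). Against tumor-bearing epithelium treated adenoma turned to -0.03 with normexp, -0.04 with quantile normalization or scan date, -0.01 with the authors' table and -0.30 without the near-identical pair (-1.34 to 1.34), and untreated adenoma to -0.02 with quantile normalization, -0.07 with separate arrays, -0.10 with slide, -0.20 with scan date and -0.22 without that pair (-0.60 to 0.76). For Muc20 in treated adenoma against tumor-free epithelium the range was -0.45 to 2.24. Muc2 in untreated adenoma turned to 0.17 with quantile normalization and 0.20 with the authors' table against tumor-free epithelium (-1.01 to 0.65), with -1.59 to 0.06 against tumor-bearing epithelium. For untreated adenoma against tumor-bearing epithelium, Muc4 probe A_51_P392277 turned to 0.03 with separate arrays, 0.02 with the authors' table, 0.51 with array weights, 0.16 with the replicate block, 0.10 with slide and 0.26 with scan date (-0.76 to 0.41), A_52_P458219 to -0.40 without the near-identical pair (-0.40 to 0.65) and A_52_P578956 to -0.07 with separate arrays, -0.17 with slide and -1.97 without that pair (-1.97 to 2.46). A_51_P392277 ran from -0.33 to 0.81 against tumor-free epithelium. Between the epithelium groups, array weights turned Muc13 to 0.31 (-0.82 to 0.24), A_51_P392277 to -0.32 (-0.17 to 0.97), A_52_P458219 to -0.20 (-0.16 to 0.89) and A_52_P578952 to -0.12 (-0.49 to 1.44), and A_52_P578956 ran from -0.44 to 3.98. There Muc3 turned to 0.08 with separate arrays or the replicate block and 0.09 with array weights (-0.26 to 0.21), and Muc1 to -0.01 with separate arrays or the replicate block (-0.14 to 0.75). Muc3 fell in treated adenoma against both epithelium groups under every alternative run, with adjusted p up to 0.00365. Dim probes, Muc1 above all, limit what can be seen.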
